A study of Danio rerio with 12 samples.

Results

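The 9 transcription regulators of the endothelial and endocardial lineage, namely npas4l, etv2, tal1, lmo2, sox7, sox18, erg, hhex and nfatc1, were followed in sorted zebrafish cardiomyocytes that lacked or overexpressed hand2. They were chosen by gene symbol, with earlier results of these data known. All 9 were listed in both deposited tables, among 21570 genes in the mutant experiment and 21119 genes in the overexpression experiment. The 9 genes passed the filter on low values (a mean of at least 5 over the 6 libraries of an experiment) in both. Messenger RNA was sequenced at 20 h post-fertilization from cells sorted by flow cytometry for a fluorescent reporter under the promoter of the myocardial gene myl7, with 3 libraries in each of 4 groups. In the mutant experiment, Tg(myl7:EGFP)+ cells of hand2 FLD-/- embryos were compared with those of hand2 FLD+/? siblings, which were WT or heterozygous. The study describes the full-locus deletion, made with guides in both untranslated regions, as spanning the whole hand2 locus and as a null allele. In the overexpression experiment, cells of hand2 OE embryos, in which Tg(myl7:hand2-p2a-EGFP) drives hand2 in the myocardium from a myl7 promoter, were compared with cells of WT siblings. The figure legends of the study name EGFP as the sorting reporter of this experiment in 1 place and mCherry in another. Values are the authors' normalized read counts, scaled within each experiment, and are called normalized counts below.

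The cells that line blood vessels and the cells that line the heart tube, the endocardium, arise from lateral mesoderm close to the myocardial progenitors. In zebrafish, the bHLH-PAS factor Npas4l (cloche) acts at the top of the programme that specifies endothelium and blood, upstream of the ETS factor Etv2 and of the bHLH factor Tal1, which works in complexes bridged by the LIM-only protein Lmo2. The SoxF factors Sox7 and Sox18, the ETS factor Erg and the homeobox factor Hhex act in differentiating endothelium, and Nfatc1, a factor controlled by calcineurin, marks the endocardium. The study followed the fate of cells that express a hand2 reporter in mutant embryos and combined the hand2 deletion with an npas4l mutation, and the question put to the libraries here is how these regulators stood in myl7 reporter cells with too little or too much hand2.

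The labels were first checked on hand2 and myl7. hand2 had 149, 427 and 45 normalized counts in the hand2 FLD-/- libraries, against 2228, 2336 and 2380 in the hand2 FLD+/? libraries. It had 2159, 1939 and 2102 in the hand2 OE libraries, against 1671, 1667 and 1611 in the WT libraries, a log2 fold change of 0.32 that lies under the 1.5-fold threshold. The residual hand2 level of the second hand2 FLD-/- library was the highest of its group. The cardiac myosin light chain gene myl7, which marks the sorted cells, ranged over 1627–1801 and 1984–2025 normalized counts in hand2 FLD-/- and hand2 FLD+/?, and over 2019–2313 and 2171–2213 in hand2 OE and WT. Library totals were 6728865–6749894 in hand2 FLD-/- against 6939409–6965321 in hand2 FLD+/?, and 5322231–5371620 in hand2 OE against 5330481–5425823 in WT. Some libraries stood apart in the summed level of epidermal genes, with 2893 in the second hand2 FLD+/? library against 698 and 803 in the other two, and 322, 3326 and 1317 in hand2 OE against 1566, 458 and 1940 in WT.

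In hand2 FLD-/- cells, 6 of the 9 regulators were higher than in hand2 FLD+/? cells, none was called lower and 3 were not called. sox7 and erg rose about 6-fold, etv2 and hhex about 3-fold, and npas4l and tal1 about 2-fold. A gene was called at an adjusted p of at most 0.05 (limma, Benjamini-Hochberg over all 17877 genes tested) and a fold change of at least 1.5. By this rule 9.09% of the genes tested were called up and 9.43% down. At an unadjusted p under 0.05, limma gave all 9, nfatc1 among them as lower, where 7190 of all 17877 genes tested passed. The values of the 3 mutant and the 3 sibling libraries did not overlap for any of the 9 regulators, 8 being higher and nfatc1 lower, where 44.3% of all genes tested had groups without overlap. The median log2 fold change of the 9 was 1.17, beside a median of 0.00 over all genes tested. The summed normalized count of the 9 genes was 3480–3857 in hand2 FLD-/- and 1607–1693 in hand2 FLD+/?, a ratio of 2.23. Levels in a sorted bulk sample do not tell more cells of a type from more RNA per cell.

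**Figure D1:**
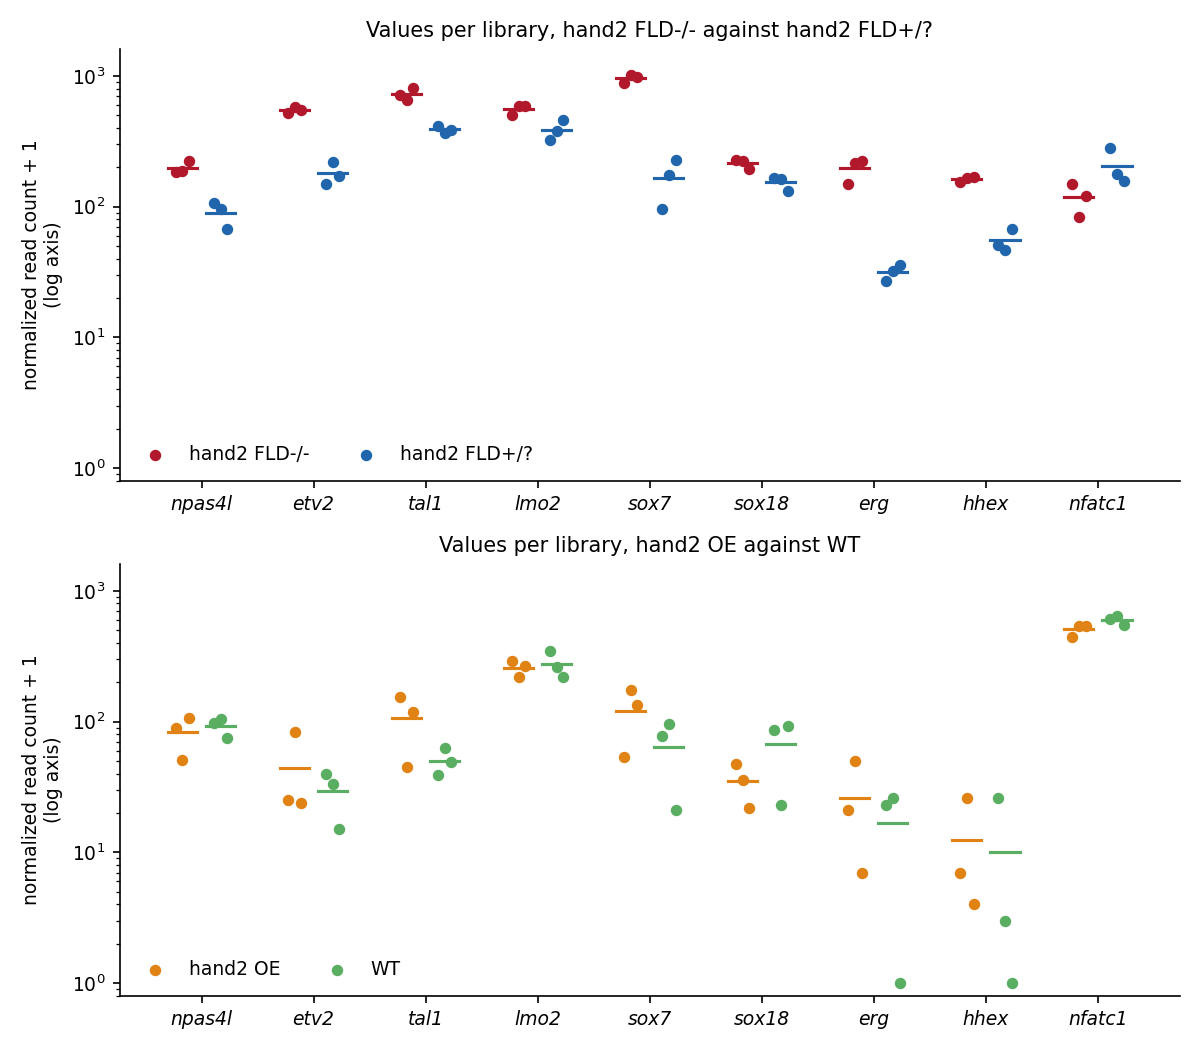
Normalized read count plus 1 of the 9 regulators in each library, on a log axis, with hand2 FLD-/- and hand2 FLD+/? above and hand2 OE and WT below. Points are libraries and bars are means of 3 libraries. The mutant and sibling points separate for all 9 genes, nfatc1 with the mutants lower, whereas hand2 OE and WT points separate for nfatc1 only.

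Among the factors at the top of the programme, npas4l (ENSDARG00000116511, danRer11 chromosome 13, 52006253 to 52017013, plus strand) had 184, 186 and 223 normalized counts in the hand2 FLD-/- libraries, against 105, 95 and 66 in the hand2 FLD+/? libraries. Every mutant library was above every sibling library, with a log2 fold change of 1.17 ± 0.21 (SE, n = 3 libraries each; 95% interval 0.68 to 1.65) and an adjusted p of 0.00314 in limma. etv2 (ENSDARG00000053868, chromosome 16, 42007090 to 42014272, minus strand), which encodes the ETS factor that starts vessel gene expression downstream of Npas4l, had 516, 573 and 549 in hand2 FLD-/- and 149, 218 and 170 in hand2 FLD+/?. The mutant values of etv2 lay close together, with a coefficient of variation of 5.24% against 19.8% in the siblings, and the log2 fold change was 1.62 ± 0.15 (95% interval 1.29 to 1.95, limma adjusted p 5.12e-05). The neighbour of etv2 on the chromosome is the ETS gene fli1b (42018041 to 42046881, plus strand), which was named here after its values were seen. It had 732, 795 and 636 normalized counts in hand2 FLD-/-, against 411, 369 and 507 in hand2 FLD+/?, a log2 fold change of 0.75 with an adjusted p of 0.00210 in limma.

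tal1 (ENSDARG00000019930, chromosome 22, 16535575 to 16545330, plus strand), needed for blood cells and for the endocardium in zebrafish, had 720, 658 and 808 normalized counts in hand2 FLD-/-, against 413, 367 and 385 in hand2 FLD+/?. The groups lay far apart relative to their spread, at a log2 fold change of 0.90 ± 0.10 (95% interval 0.69 to 1.12, limma adjusted p 1.39e-04). lmo2 (ENSDARG00000095019, chromosome 18, 38288877 to 38296665, plus strand), whose product joins Tal1 to GATA factors, had 498, 588 and 586 in hand2 FLD-/- and 321, 377 and 456 in hand2 FLD+/?. The third sibling library came within reach of the first mutant library, and with a log2 fold change of 0.54 ± 0.13 (95% interval 0.24 to 0.85, limma adjusted p 0.0140) lmo2 stayed under the 1.5-fold threshold. It passed both criteria without the first hand2 FLD-/- library (0.62, adjusted p 0.0189) or without the third hand2 FLD+/? library (0.67, adjusted p 0.00418). Without the second or the third hand2 FLD-/- library, its limma adjusted p rose to 0.051 or 0.052. Without the first hand2 FLD+/? library, its log2 fold change was 0.42.

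Of the SoxF factors, which take part in vessel formation and in arterial and venous identity in zebrafish, sox7 was called and sox18 was not. sox7 (ENSDARG00000030125, chromosome 20, 19066596 to 19080593, plus strand) had 886, 1021 and 986 normalized counts in hand2 FLD-/-, against 95, 173 and 227 in hand2 FLD+/?. Its mutant mean was 5.84 times the sibling mean, and its sibling libraries varied more than its mutant libraries (coefficients of variation of 7.27% in hand2 FLD-/- against 40.2% in hand2 FLD+/?). It rose by 2.63 ± 0.26 on the log2 scale (95% interval 2.03 to 3.22, limma adjusted p 9.71e-05), and 1.82% of all genes tested rose more. sox18 (ENSDARG00000058598, chromosome 23, 8797143 to 8799880, plus strand) had 226, 222 and 193 in hand2 FLD-/- and 166, 163 and 130 in hand2 FLD+/?. Its groups did not overlap, but the log2 fold change of 0.48 ± 0.16 (95% interval 0.13 to 0.84, limma adjusted p 0.0463) lay under the 1.5-fold threshold. The 95% intervals of sox7 and sox18 do not meet, although the difference between these changes was not tested.

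erg (ENSDARG00000077304, chromosome 10, 161660 to 167782, minus strand), an ETS gene that maintains endothelial identity and junctions, had 149, 215 and 224 normalized counts in hand2 FLD-/-, against 26, 31 and 35 in hand2 FLD+/?. The mutant mean was 6.39 times the sibling mean, with a log2 fold change of 2.62 ± 0.26 (95% interval 2.04 to 3.21, limma adjusted p 8.68e-05). hhex (ENSDARG00000098231, chromosome 12, 47663419 to 47667745, plus strand) had 154, 165 and 168 in hand2 FLD-/- and 50, 46 and 67 in hand2 FLD+/?. Its groups lay far apart, with a log2 fold change of 1.58 ± 0.22 (95% interval 1.08 to 2.08, limma adjusted p 6.67e-04). Hhex acts in endothelial and blood progenitors and also in the liver primordium. Of 6 endoderm and liver genes tested, the forkhead gene foxa3 was called up (log2 fold change 2.85), the homeobox gene prox1a was called down (-1.69) and 4 were not called. The summed level of the endoderm and liver list was 479–561 in hand2 FLD-/- and 594–741 in hand2 FLD+/?. Most of the sibling sum was prox1a, which is also on the list of other endothelial and endocardial transcription factors. prox1a had 171, 182 and 165 normalized counts in hand2 FLD-/-, against 620, 606 and 461 in hand2 FLD+/?. The lower sum of the mutants therefore does not describe the other genes of this list. The part of this list in the hhex result was not tested.

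nfatc1 (ENSDARG00000036168, chromosome 19, 22216778 to 22304534, plus strand), a marker of endocardium, was the only one of the 9 lower in the mutants. In WT cells of the overexpression experiment it had the highest mean of the 9 (601 normalized counts). Which of the sorted cells expressed it was not tested. nfatc1 had 147, 83 and 120 normalized counts in hand2 FLD-/-, against 282, 177 and 157 in hand2 FLD+/?. The lowest sibling library was close to the highest mutant library. The log2 fold change of -0.80 ± 0.27 (95% interval -1.42 to -0.18) had an adjusted p of 0.0558 in limma, just above the threshold of 0.05. It was called down without the first hand2 FLD-/- library (-0.99, adjusted p 0.0449) or without the third hand2 FLD+/? library (-0.97, adjusted p 0.0435). Without the second hand2 FLD-/- library (-0.58, limma adjusted p 0.161) or the first hand2 FLD+/? library (-0.55, 0.182), it was under the 1.5-fold threshold. Without the third hand2 FLD-/- or the second hand2 FLD+/? library, its limma adjusted p was 0.0993 or 0.0867.

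**Figure D2:**
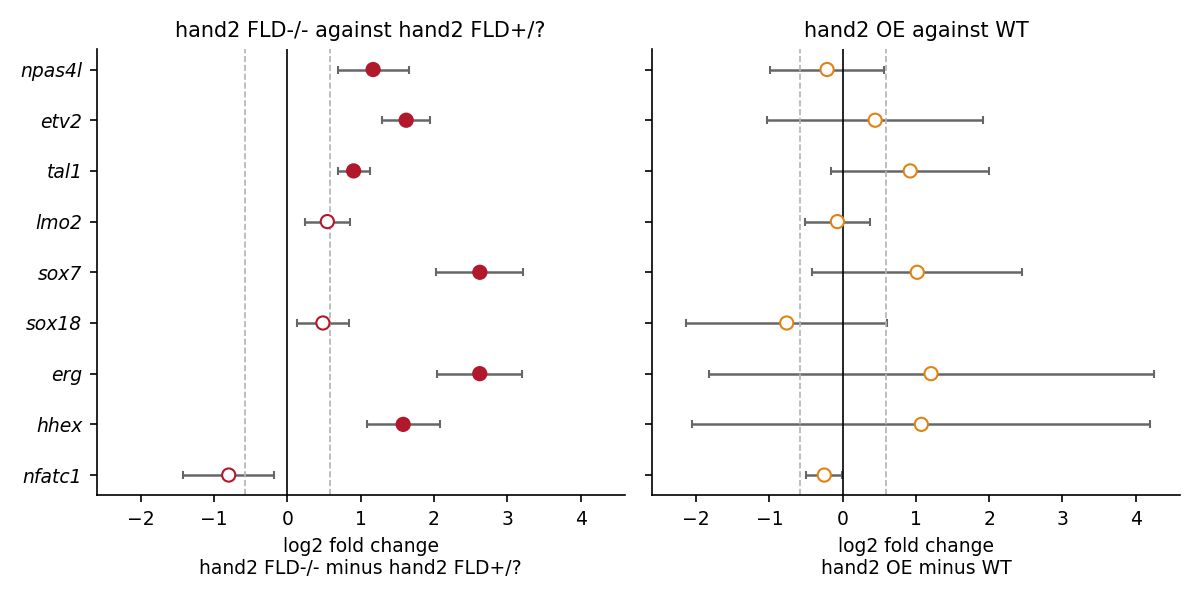
Log2 fold changes of the 9 regulators on the scale of log2(normalized count + 1), hand2 FLD-/- minus hand2 FLD+/? on the left and hand2 OE minus WT on the right. Points are limma estimates from 3 libraries per group, bars are 95% intervals, filled points were called and dashed lines mark a 1.5-fold change. The 6 filled points on the left run between 0.90 (tal1) and 2.63 (sox7), and no point on the right is filled.

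In the spread of all genes tested, the 6 called regulators lay on the upper flank and not at its end. A larger log2 fold change was found in 1.83% of genes for erg, 4.92% for etv2, 5.16% for hhex, 7.78% for npas4l and 11.2% for tal1. On the other flank, 13.5% of genes had a lower log2 fold change than nfatc1.

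**Figure D3:**
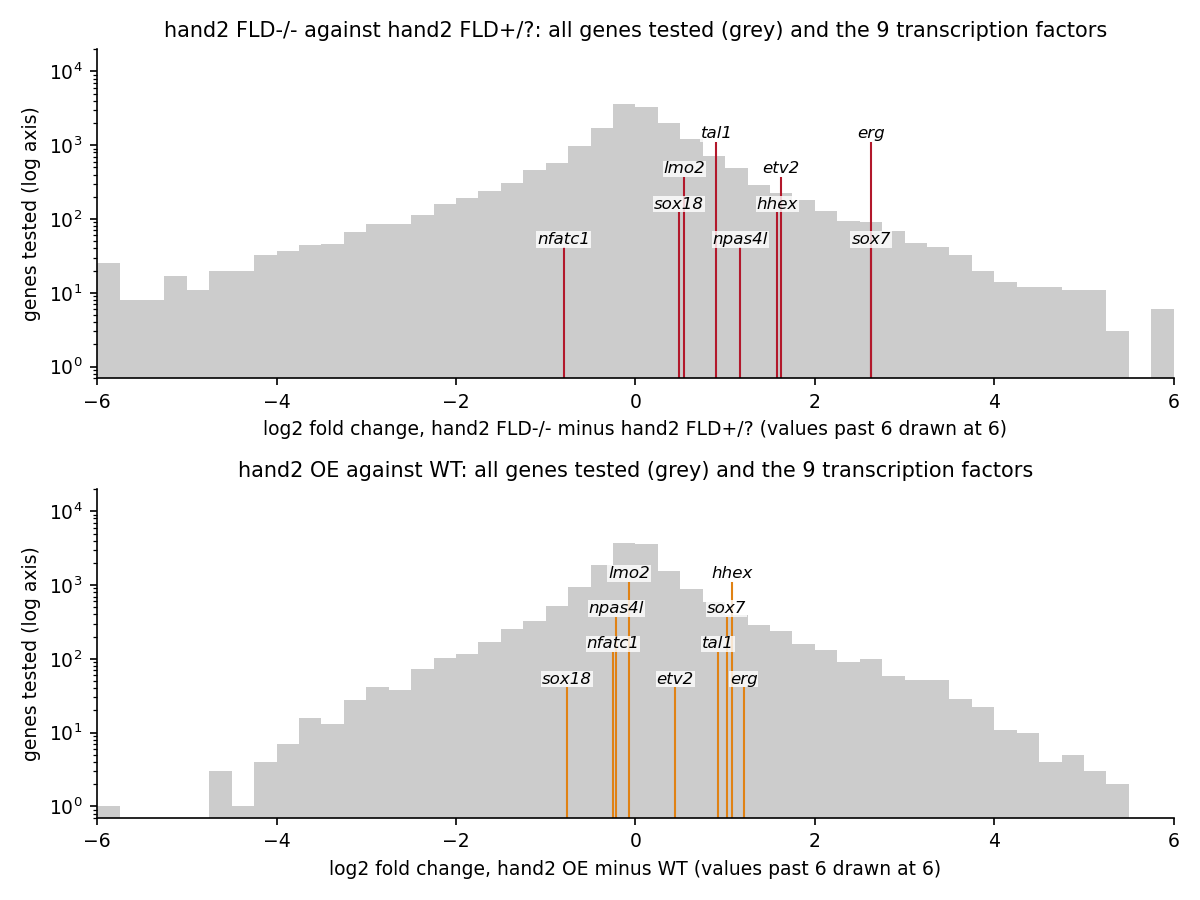
Histogram of the log2 fold changes of all genes tested (grey, gene counts on a log axis), with the 9 regulators as vertical lines, for hand2 FLD-/- minus hand2 FLD+/? above (17877 genes) and hand2 OE minus WT below (16510 genes). The height of a line has no meaning. In the mutants 8 lines stand right of 0 and nfatc1 left of it, and in hand2 OE the lines fall on both sides.

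For each called regulator, the genes with the most similar values over the 6 libraries of the mutant experiment were looked up in the 12489 genes whose mean was 50 or more. Likeness is the root mean square distance between the log2 values, each taken relative to the sibling mean, so that genes with the same mutant change and the same sample-to-sample deviations come closest. The nearest gene to npas4l was the phospholipase gene ddhd1a (distance 0.07), and the next were nepro and ppm1h. The nearest to etv2 were the homeobox gene tlx1 (0.06), si:ch211-160j14.3 and si:ch211-160f23.5, and those to tal1 were the zinc finger gene znf704 (0.05), ptpro and igfbp1a. hhex was closest to drl (0.11), a zinc finger gene of the lateral plate mesoderm in zebrafish, followed by gdf10a and phf20b. The strongest risers had less close neighbours, foxa3 (0.23), cadps2 and ccm2l for sox7, and shox2 (0.15), six1a and foxi1 for erg. These distances describe 6 libraries and were not tested.

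The other endothelial and endocardial transcription factors moved in both directions in the mutants. Of 24 tested, 7 were called up and 5 down, with a median log2 fold change of 0.24. The largest rises were in gata2a, a GATA factor of endothelium and blood progenitors, with 426, 506 and 414 normalized counts in hand2 FLD-/- against 33, 100 and 45 in hand2 FLD+/? (log2 fold change 3.05), in the forkhead gene foxc1a (2.63) and in the ETS gene fli1a (1.92). The largest fall was in foxf1, a forkhead gene of lateral mesoderm, with 8, 55 and 26 in hand2 FLD-/- and 180, 174 and 221 in hand2 FLD+/? (-3.00). The ETS genes ets1 and ets2 were not called. ets1 had 206, 218 and 234 normalized counts in hand2 FLD-/- and 187, 161 and 205 in hand2 FLD+/?, and ets2 had 665, 691 and 754 in hand2 FLD-/- and 813, 826 and 788 in hand2 FLD+/?. The summed level of this list was 15511–16135 in hand2 FLD-/- and 16119–16921 in hand2 FLD+/?. The most abundant genes in it were mef2ca, mef2cb, meis1b and gata5, with means over the 6 libraries of 1941, 1863, 1847 and 1820. None of them was called, and the sum says little about the less abundant factors. gata5 was lower in every mutant library (log2 fold change -0.52, limma adjusted p 9.86e-05) and missed the call on the 1.5-fold threshold. How much of it came from cardiomyocytes was not tested.

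**Figure D4:**
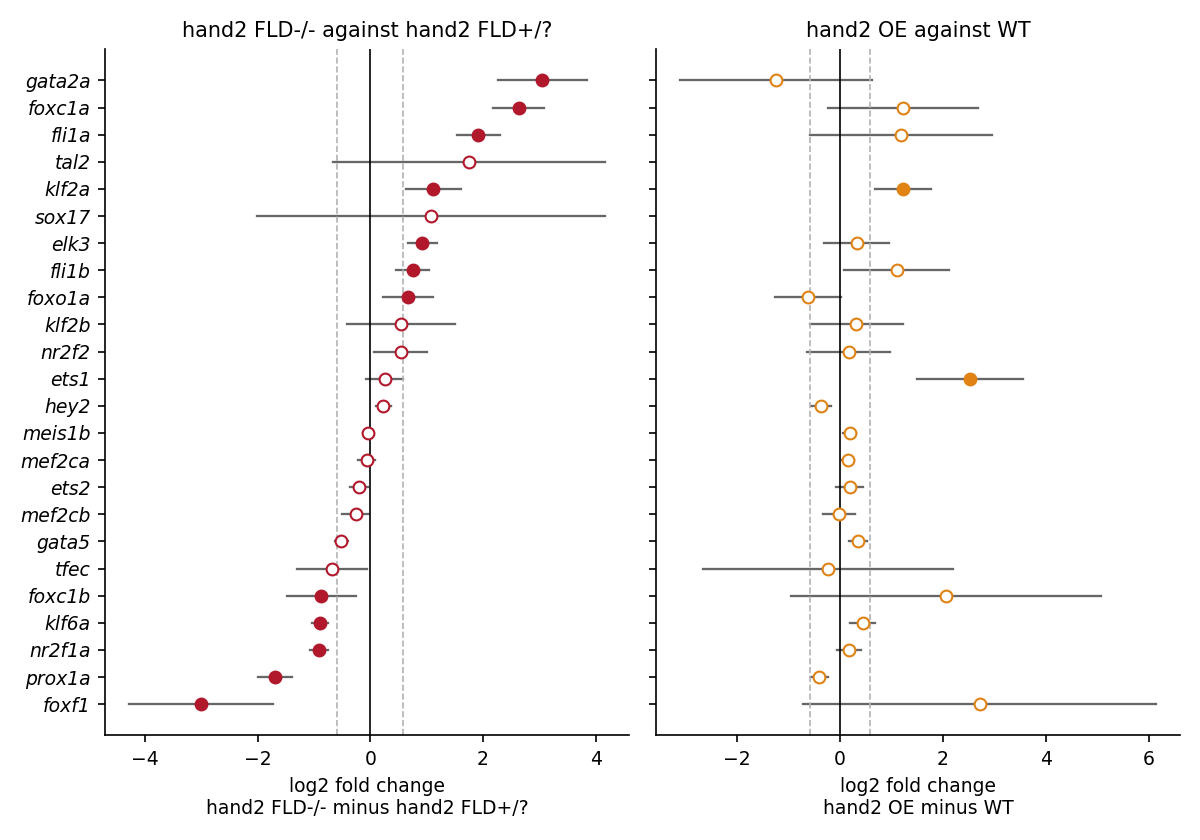
Log2 fold changes of the other endothelial and endocardial transcription factors, hand2 FLD-/- minus hand2 FLD+/? on the left and hand2 OE minus WT on the right, ordered by the change in the mutants. Points are limma estimates from 3 libraries per group, bars are 95% intervals, filled points were called and dashed lines mark a 1.5-fold change. On the left 7 filled points lie above 0, led by gata2a at 3.05, and 5 lie below it, down to foxf1 at -3.00, and on the right ets1 and klf2a are filled.

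Tal1 and Lmo2 act with E proteins, LIM-domain-binding proteins and GATA factors. Of 12 such partners tested, 4 were called up in the mutants and 1 down, with a median log2 fold change of 0.27. Beside gata2a, the genes called up included ldb2a, a LIM-domain-binding cofactor, with 383, 331 and 380 normalized counts in hand2 FLD-/- against 104, 102 and 97 in hand2 FLD+/? (log2 fold change 1.84), and lmo1, a paralog of lmo2 (1.45). The gene called down was the E protein gene tcf12, with 618, 575 and 567 in hand2 FLD-/- and 1771, 1783 and 1794 in hand2 FLD+/? (-1.60). The E protein genes tcf3a (log2 fold change 0.12) and tcf3b (0.11) and the cofactor gene ldb1a (-0.04) were not called. Partners of Tal1 and Lmo2 thus included genes that rose, fell and did not pass the test.

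Several of the 9 regulators also act in blood, and markers of blood were read beside them. Of 13 haematopoietic transcription factors tested, 3 were called up in hand2 FLD-/- and none down, with a median log2 fold change of 0.24. An unadjusted p under 0.05 in limma was found for 5 of the 13, and for 7190 of all 17877 genes tested. The 3 called up were drl (log2 fold change 1.56), the progenitor factor myb (0.77) and the lymphoid factor ikzf1 (0.59). ikzf1 lay just over the fold threshold and fell under it without the third hand2 FLD-/- library (0.56) or without the second hand2 FLD+/? library (0.52). The haematopoietic factors summed to 4515–4625 in hand2 FLD-/- and 3740–4105 in hand2 FLD+/?, without overlap. The erythroid regulator gata1a had 20, 9 and 15 normalized counts in hand2 FLD-/- and 3, 0 and 37 in hand2 FLD+/?. Of 13 erythroid genes tested, 2 were called up, the membrane skeleton gene epb41b (4.51) and the zinc finger gene blf (0.75), and the summed level was 3694–4309 in hand2 FLD-/- and 3566–4020 in hand2 FLD+/?. Of 7 myeloid genes tested, the lysozyme gene lyz was called up (1.69) and the macrophage gene mpeg1.1 down (-0.89), and the sum was 2454–2816 in hand2 FLD-/- and 3177–3434 in hand2 FLD+/?. The call of lyz, which had 24, 23 and 17 normalized counts in hand2 FLD-/- and 7, 4 and 7 in hand2 FLD+/?, was lost without any 1 of the 6 libraries (adjusted p 0.0510 to 0.124).

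Receptors and junction genes of the endothelium were mostly higher in the mutants, as were the regulators. Of 23 tested, 16 were called up, 2 down and 5 were not called, with a median log2 fold change of 2.11. cdh5, the cadherin of endothelial junctions, had 1051, 1016 and 1054 normalized counts in hand2 FLD-/- and 214, 102 and 134 in hand2 FLD+/? (log2 fold change 2.85), and the receptor tyrosine kinase gene tie1 had 458, 479 and 370 in hand2 FLD-/- and 45, 32 and 101 in hand2 FLD+/? (3.01). ecscr, an endothelial surface gene, had 112, 143 and 194 in hand2 FLD-/- and 33, 0 and 34 in hand2 FLD+/?, and its call was lost without any 1 of the 3 mutant libraries (adjusted p 0.0849 to 0.108). The 2 genes called down were plvapa, listed at 0 in all 3 hand2 FLD-/- libraries and at 26, 29 and 19 in hand2 FLD+/?, and the scavenger receptor gene stab1, which was named after its values were seen. stab1 had 95, 77 and 95 normalized counts in hand2 FLD-/- and 568, 737 and 632 in hand2 FLD+/? (log2 fold change -2.84, limma adjusted p 2.16e-06), the smallest adjusted p of the list. The summed level of the 25 genes listed was 6647–6867 in hand2 FLD-/- and 2864–3045 in hand2 FLD+/?, a ratio of 2.30 beside the ratio of 2.23 for the 9 regulators.

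Cardiomyocyte genes lay lower in the mutants. None of 16 rows tested had a log2 fold change above 0, the median was -0.27 and 5 were called down, including the atrial myosin gene myh6 (log2 fold change -2.37) and the transcription factor genes tbx5a (-1.98), gata4 (-0.96) and tbx20 (-0.80). Their summed level was 33133–34588 in hand2 FLD-/- and 49247–51966 in hand2 FLD+/?. The part of this fall, and of the rise of the endothelial receptors, in the levels of the 9 regulators was not tested. Of the remaining lists, 1 of 7 skeletal muscle genes was called up and 1 down, 1 of 8 neural genes was called up and 2 down, and 1 of 5 neural crest genes was called down. Over all genes tested, 9.09% were called up and 9.43% down. The skeletal muscle gene called up, the myogenic factor gene myod1 (log2 fold change 3.34), lost its call without any 1 of 5 of the 6 libraries, all but the first hand2 FLD+/? library (adjusted p 0.0862 to 0.129). The neural crest gene snai1b (-0.66) fell under the fold threshold without the first hand2 FLD-/- library (-0.54) or without the second hand2 FLD+/? library (-0.58). None of 7 epidermal or 2 hatching gland genes was called by limma, and 0 of the epidermal and 1 of the hatching gland genes had an unadjusted p under 0.05. The summed neural level was 1951–2388 in hand2 FLD-/- and 2542–3265 in hand2 FLD+/?, and the summed epidermal level of hand2 FLD-/- was 898–959. Sums also lay lower in the mutants, without overlap, for the skeletal muscle genes (2744–2825 in hand2 FLD-/-, 3252–3718 in hand2 FLD+/?). The same held for the hatching gland genes (746–823 in hand2 FLD-/-, 899–919 in hand2 FLD+/?).

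**Figure D5:**
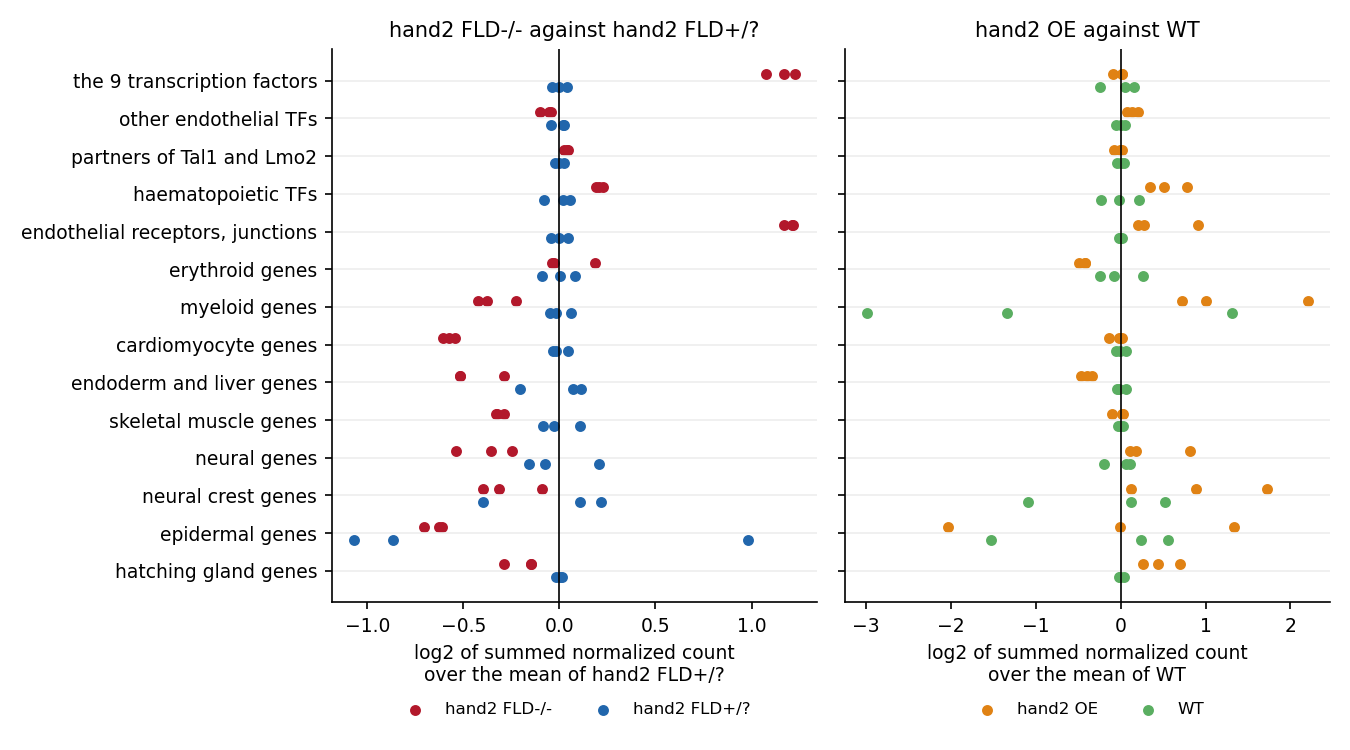
Summed normalized count of each gene list in each library, as log2 of its ratio to the mean of the control libraries, with hand2 FLD-/- and hand2 FLD+/? on the left and hand2 OE and WT on the right. Points are libraries, and the scales of the panels differ. In the mutants the 9 regulators (3480–3857 in hand2 FLD-/-, 1607–1693 in hand2 FLD+/?) and the endothelial receptors lie above 0 and the cardiomyocyte genes below it. In hand2 OE the sum of the 9 regulators (1125–1215) lies within the WT range (1013–1337). The most abundant of the 9 there were nfatc1 (means of 506 in hand2 OE and 601 in WT) and lmo2 (258 and 274), and the sum says little about the others.

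In hand2 OE cells, none of the 9 regulators was called higher or lower than in WT cells, where 2.53% of 16510 genes tested were called up and 1.57% down. At an unadjusted p under 0.05, limma gave 1 of the 9, nfatc1, where 3456 of all 16510 genes tested passed. The groups overlapped for 8 of the 9 regulators, where 26.1% of all genes had groups without overlap. The median log2 fold change of the 9 was 0.44, beside 0.00 over all genes tested, and it was -0.23 without the third WT library.

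nfatc1 was the regulator with the narrowest spread in this experiment. It had 443, 538 and 537 normalized counts in hand2 OE, against 609, 645 and 549 in WT, so that every hand2 OE library lay below every WT library. The log2 fold change was -0.25 ± 0.11 (SE, n = 3 libraries each; 95% interval -0.50 to -0.00) and the limma adjusted p was 0.233. The interval does not reach a 1.5-fold fall and ends almost at 0.

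At the top of the programme, npas4l had 89, 50 and 106 normalized counts in hand2 OE and 96, 104 and 74 in WT, a log2 fold change of -0.21 (95% interval -0.99 to 0.56). etv2 had 24, 82 and 23 in hand2 OE and 39, 32 and 14 in WT (0.44, interval -1.03 to 1.92). The second hand2 OE library was the lowest for npas4l and the highest for etv2, and without it the log2 fold changes were 0.10 and -0.14. tal1 had 152, 44 and 118 in hand2 OE and 38, 62 and 48 in WT (0.92, interval -0.16 to 2.00, limma adjusted p 0.320). Of its hand2 OE libraries, 2 were above all WT libraries and 1 was within their range. lmo2 had 292, 218 and 264 in hand2 OE and 347, 259 and 217 in WT (-0.07, interval -0.52 to 0.38).

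Among the later factors, sox7 had 53, 174 and 134 normalized counts in hand2 OE and 76, 94 and 20 in WT, a log2 fold change of 1.02 with a 95% interval of -0.41 to 2.45. sox18 had 46, 35 and 21 in hand2 OE and 85, 22 and 91 in WT (-0.76, interval -2.14 to 0.61). These SoxF genes lay on opposite sides of 0, and both intervals include it. erg had 20, 49 and 6 in hand2 OE and 22, 25 and 0 in WT (1.21, interval -1.83 to 4.24), and hhex had 6, 25 and 3 in hand2 OE and 25, 2 and 0 in WT (1.07, interval -2.05 to 4.20). With values this low and coefficients of variation of 87.7% in hand2 OE and 87.1% in WT for erg and of 105% in hand2 OE and 154% in WT for hhex, a change of a few fold in either direction was not detectable. The second hand2 OE library was the highest, or tied for it, for 4 of the 9 regulators, and the third WT library was the lowest for 5 of them.

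Of 22 other endothelial and endocardial transcription factors tested in hand2 OE, 2 were called up and none down, 9 having an unadjusted p under 0.05 in either direction in limma, with a median log2 fold change of 0.26. ets1, an ETS gene of vessels, had 83, 96 and 67 normalized counts in hand2 OE and 19, 11 and 11 in WT (2.53, limma adjusted p 0.0141), a call lost without the second hand2 OE library (adjusted p 0.0586). klf2a, which responds to blood flow in endocardium and vessels, had 202, 154 and 225 in hand2 OE and 99, 72 and 76 in WT (1.22, limma adjusted p 0.0196), a call lost without the first or the third hand2 OE library, or the second or the third WT library, (adjusted p 0.0597 to 0.0793). None of the 11 partners of Tal1 and Lmo2 was called, 3 having an unadjusted p under 0.05 in limma, and the E protein gene tcf12 had 1064, 1148 and 1052 in hand2 OE and 954, 816 and 894 in WT (0.29, adjusted p 0.0529).

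Of 10 haematopoietic transcription factors tested in hand2 OE, ikzf1 was called up, with 306, 268 and 175 normalized counts in hand2 OE against 46, 34 and 58 in WT (log2 fold change 2.41, limma adjusted p 0.00339). An unadjusted p under 0.05 in limma, in either direction, was found for 6 of the 10, and for 3456 of all 16510 genes tested. Their median log2 fold change was 0.41. None of 22 endothelial receptor and junction genes was called by limma, 3 having an unadjusted p under 0.05, the median log2 fold change was 0.75, and their summed level was 1297, 2023 and 1233 in hand2 OE and 1062, 1086 and 1068 in WT. The second hand2 OE library thus also stood highest in this list. Cardiomyocyte genes summed to 55591–61967 in hand2 OE and 59028–64065 in WT, with none of 16 called by limma, 2 having an unadjusted p under 0.05 and a median log2 fold change of -0.01. Myeloid genes summed to 319, 732 and 262 in hand2 OE and 394, 20 and 63 in WT, with 1 of 4 called up, cxcr3.2, which was listed at 0 in all WT libraries and had 37, 47 and 18 in hand2 OE. That call was lost without any 1 of the 3 hand2 OE libraries (adjusted p 0.0514 to 0.0783). None of 10 erythroid, 6 endoderm and liver, 4 neural crest, 6 epidermal or 2 hatching gland genes was called (limma, with 1, 1, 2, 0 and 1 of them at an unadjusted p under 0.05). Of 8 neural genes, the tubulin gene tubb5 was called up (log2 fold change 0.82), a call lost without the second hand2 OE library (adjusted p 0.0541), and of 5 skeletal muscle genes the troponin gene tnnt3b was called down (-0.98), a call lost without the first or the second hand2 OE library or any 1 of the WT libraries (adjusted p 0.0819 to 0.135). Some lists without a call had sums that did not overlap between the groups. These sums were at 2500–2639 in hand2 OE and 2982–4243 in WT for the erythroid genes (median log2 fold change -1.20, with 1 of 10 genes above 0). They were at 758–829 in hand2 OE and 1020–1093 in WT for the endoderm and liver genes, and at 549–740 in hand2 OE and 449–468 in WT for the hatching gland genes. The summed haematopoietic factors (1444–1941 in hand2 OE, 961–1314 in WT) and neural genes (1857–3011 in hand2 OE, 1494–1851 in WT) did not overlap either. The second hand2 OE library, high for several of the 9 regulators, was also the highest of the 6 in the sums of the neural (3011), neural crest (350) and hatching gland (740) genes. The part of these lists in the levels of the 9 regulators was not tested.

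Set side by side per 1000000 normalized counts of each library, every regulator but nfatc1 had its highest mean in hand2 FLD-/-. There nfatc1 had its lowest mean, and the order of the other groups differed between regulators. The experiments were normalized separately and share no group, so these levels were not tested across them. sox7 averaged 143 ± 10.2 per 1000000 in hand2 FLD-/-, 23.7 ± 9.55 in hand2 FLD+/?, 22.6 ± 11.6 in hand2 OE and 11.8 ± 7.11 in WT (SD, n = 3 each), and only hand2 FLD-/- stood clear of the others. In erg the levels were 29.1 ± 6.04 in hand2 FLD-/-, 4.41 ± 0.648 in hand2 FLD+/?, 4.69 ± 4.13 in hand2 OE and 2.91 ± 2.53 in WT. npas4l averaged 29.3 ± 3.24 in hand2 FLD-/-, 12.8 ± 2.92 in hand2 FLD+/?, 15.3 ± 5.36 in hand2 OE and 17.0 ± 2.77 in WT. lmo2 averaged 82.7 ± 7.50 in hand2 FLD-/-, 55.4 ± 9.76 in hand2 FLD+/?, 48.3 ± 6.78 in hand2 OE and 51.1 ± 12.5 in WT. In these genes, too, the ranges of the 3 groups below hand2 FLD-/- overlapped.

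For etv2, tal1, hhex and sox18 the siblings of the mutants formed a separate step below hand2 FLD-/- and above hand2 OE and WT. The step between these siblings and the hand2 OE and WT groups is also a difference between experiments, and it was not tested. etv2 averaged 81.0 ± 4.12 per 1000000 in hand2 FLD-/-, 25.8 ± 5.04 in hand2 FLD+/?, 8.06 ± 6.36 in hand2 OE and 5.27 ± 2.40 in WT. tal1 averaged 108 ± 11.2 in hand2 FLD-/-, 55.9 ± 3.43 in hand2 FLD+/?, 19.6 ± 10.3 in hand2 OE and 9.18 ± 2.17 in WT. hhex averaged 24.1 ± 1.06 in hand2 FLD-/-, 7.82 ± 1.61 in hand2 FLD+/?, 2.13 ± 2.24 in hand2 OE and 1.68 ± 2.60 in WT. sox18 averaged 31.7 ± 2.69 in hand2 FLD-/-, 22.0 ± 2.86 in hand2 FLD+/?, 6.36 ± 2.32 in hand2 OE and 12.3 ± 7.20 in WT. In these 4 genes the ranges of hand2 OE and WT overlapped. nfatc1 ran the other way, with 17.3 ± 4.79 per 1000000 in hand2 FLD-/-, 29.6 ± 9.70 in hand2 FLD+/?, 94.8 ± 10.6 in hand2 OE and 112 ± 8.13 in WT, and no ranges of neighbouring groups overlapped.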

How the data were processed

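Single-end reads were trimmed (Trimmomatic 0.39) and aligned to danRer11 (STAR 2.7.10a) by the authors, and those over exons were counted per gene (featureCounts 2.0.2), without reads that fit several genes or places. Use of strand is not stated, and its effect on the counts of the 9 regulators was not tested. Each deposited value is a score, a read count that the authors normalized per experiment and then rounded, so that a model for counts was not used. Raw depth was not used here, and every column was assigned to a sample by its name. The study calls the samples biologically independent.

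Each experiment was fitted on its own with limma 3.58.1 under R 4.3.3 (lmFit, eBayes with a trend) on log2(value + 1), keeping genes whose mean was 5 or more. A call needed a fold change of 1.5 and a Benjamini-Hochberg adjusted p of at most 0.05. The added 1 shrinks the log2 fold changes of low genes. They are differences of mean log values, so a library with a very low value can also move them past the ratio of means. In hand2 OE, erg had a log2 fold change of 1.21 with a ratio of means of 1.60, and hhex 1.07 with 1.26. Intervals are at 95%. The steps were tested on simulated data in which only genes with a mean of 50 or more were changed. How they do for genes as low and as variable as erg and hhex in hand2 OE and WT was not tested. The members and lists were chosen with earlier results of these data known. From each other list at most the 4 called genes with the largest change were to be named, and uncalled genes of the transcription factor lists with a mean of 50 or more as examples. gata1a, fli1b and stab1 lie outside this rule and were named after their values were seen. No sequence is given here. Alternatives were pseudocounts of 0.5 and 5, a minimum mean of 1 or 20 and no filter, scaling to equal totals or upper quartiles, no trend, other fold thresholds, the replicate number as a block, and each library left out.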

Additional observations from a re-analysis of the deposited data

How the results depend on the processing

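In the mutant experiment, npas4l, etv2, sox7, erg and hhex were called up in all 17 alternatives and tal1 in 16, all but a fold threshold of 2. No member changed sign in 153 member and alternative pairs. In 143 of them the member stayed called, or stayed uncalled, as in the main analysis. lmo2 was called at equal library totals (0.59) and, like sox18, without a fold threshold. The limma adjusted p of sox18 was above 0.05 with any 1 library left out (0.056 to 0.129). nfatc1, and so 1 member, was called down with a mean of at least 20 (adjusted p 0.0476) and with the replicate block (0.0267). In limma without the trend, the adjusted p was 0.069 for lmo2, 0.0591 for sox18 and 0.138 for nfatc1. Without 1 library each, 0 to 1 members were called down and the median of the members was 0.97 to 1.3. At a fold threshold of 2, 4 other factors were called up, 2 down and 2105 genes in all, against 5292 genes without a fold threshold and 3310 in the main analysis.

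In hand2 OE, no member was called in any of 152 pairs. Signs turned without the second hand2 OE library for npas4l (0.10, and -0.43 to 0.10 over the libraries left out), etv2 (-0.14) and lmo2 (0.04), without the first WT library for lmo2 (0.11), and without the third WT library for erg (-0.33, over all libraries -0.33 to 2.02) and the median of the members (-0.23). That median was 0.19 with a mean of at least 20, where hhex was not tested, and -0.23 to 0.75 without 1 library each. Other factors called up numbered 1 without the trend, 4 without a fold threshold (2 then called down) and 1 to 2 without 1 library each. Genes called numbered 677, and 203 without the trend, 1094 without a fold threshold, 387 at a threshold of 2 and 357 to 569 without 1 library each. The causes were not tested.

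Same-numbered libraries did not deviate together (correlations of 0.02, 0.03 and 0.02 in the mutant and -0.02, -0.10 and -0.04 in the overexpression experiment), so the numbers were not taken as pairs, and the replicate block changed no other member's call. With 3 libraries per group, the low values of erg and hhex in hand2 OE and WT limit what could be detected.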
